A study of Mus musculus with 2 samples.

Results

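The cells described here were Dlx2-high cells, low in the cycling genes Top2a and Mki67, of the mouse corticoseptal boundary, the midline tissue between cortex and septum, at E16.5, the stage in days of gestation. Barcodes were kept as cells above a fixed minimum of UMIs (molecular barcodes that let each captured transcript be counted once), with 500 or more genes and no more than 10% of UMIs from mitochondrial genes. Members were then chosen by their raw UMIs of 6 genes: a cell was a member when it held at least 3 UMIs of Dlx2, at most 1 UMI of Top2a and Mki67 together, at most 1 each of Lhx6 and Lhx8, and 0 of Eomes. This took 1189 of 8964 cells in the wild-type (WT) library and 1038 of 10666 in the Tcf4f/f;Emx1Cre library (Tcf4_cKO, written cKO below), 2227 of 19630 in all. The shallowest member held 3408 UMIs in WT and 3432 in cKO. In the mutant, floxed Tcf4 is recombined by Cre under the control of Emx1, a gene of the dorsal telencephalon. The labels give neither the number of embryos behind a library nor the floxed exon, and name no Cre or floxed allele in the WT animals. Each genotype is a single library, which leaves the spread between animals unknown, and no p-value is given. Levels are in CPM, the UMIs of a gene summed over the cells of a group and scaled to 1000000 UMIs of that group. Their 95% intervals cover counting error only, from the exact Poisson distribution for levels, by Clopper-Pearson for percentages and from the exact conditional binomial for ratios.

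Dlx2 and its neighbour Dlx1 are homeodomain transcription factors of the subpallium, the ventral forebrain that makes GABAergic neurons. They act downstream of the patterning factors Gsx1 and Gsx2 and they sit upstream of Dlx5, Dlx6 and the GABA-synthesizing enzymes Gad1 and Gad2. Dlx2 is highest in late progenitors and newborn neuroblasts and falls as neurons mature, while Lhx6 and Lhx8 mark cells from the medial ganglionic eminence. The zinc-finger factor Sp9, the retinoic acid-synthesizing enzyme Aldh1a3 and the vesicular monoamine transporter Slc18a2 complete the marker set given for these cells.

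Upstream sequence is shown for the gene that sets the rule (Dlx2), for a marker gene (Slc18a2) and for Gadd45g, one of the genes with the highest level relative to other GABAergic cells. Each run is the 250 bases before the RefSeq start in GRCm38.p6, 5′ to 3′ on the gene's strand. Capitals mark each E-box, the letters CANNTG that bHLH factors such as Tcf4 can bind.
Dlx2, minus strand, chr2:71546755-71547004: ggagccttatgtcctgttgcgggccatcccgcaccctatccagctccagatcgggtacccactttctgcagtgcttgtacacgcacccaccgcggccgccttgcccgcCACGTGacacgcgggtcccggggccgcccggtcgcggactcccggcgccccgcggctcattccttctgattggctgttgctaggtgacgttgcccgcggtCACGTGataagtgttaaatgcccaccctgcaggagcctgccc
Slc18a2, plus strand, chr19:59260628-59260877: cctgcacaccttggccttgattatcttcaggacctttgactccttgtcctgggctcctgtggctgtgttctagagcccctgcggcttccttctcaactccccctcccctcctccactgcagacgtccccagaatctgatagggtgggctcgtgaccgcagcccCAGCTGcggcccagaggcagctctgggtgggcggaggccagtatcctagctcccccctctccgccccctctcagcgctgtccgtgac
Gadd45g, plus strand, chr13:51846425-51846674: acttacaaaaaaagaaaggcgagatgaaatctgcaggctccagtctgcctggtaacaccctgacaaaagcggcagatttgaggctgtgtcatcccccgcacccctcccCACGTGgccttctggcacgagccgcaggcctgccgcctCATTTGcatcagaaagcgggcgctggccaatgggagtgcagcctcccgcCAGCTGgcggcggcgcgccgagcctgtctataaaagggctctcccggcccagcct
Of the 17 genes made up of the 5 markers and the 12 genes highest against other GABAergic cells, 11 were found in the promoter table. E-boxes (CANNTG, equal on both strands) were present upstream of 7 of these 11, and of 66.2% of all 32851 promoters. The form CAGCTG, which is one kind of CANNTG, was present in 2 of the 11 and in 13.0% of all promoters. The homeodomain letters TAATTA were in 0 of the 11 and in 4.84% of all promoters. These matches describe letters and not binding.

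Members made up 13.3% of WT cells (12.6 to 14.0) and 9.73% of cKO cells (9.18 to 10.3), a cKO share 0.734 times that of WT. Their median depth was 8578 UMIs in WT and 7704.5 in cKO, following the whole libraries, where it was 9800 and 8306. Since the rule counts raw UMIs, depth bears on the share directly. With each cell thinned to the UMI minimum before the rule was applied, the shares were 4.82% and 3.81%, a ratio of 0.790. GABAergic non-members (at least 3 UMIs of Gad1 and Gad2, at most 1 of Top2a and Mki67 and 0 of Eomes) with fewer than 2 UMIs of Lhx6 and fewer than 2 of Lhx8 were 8.85% of WT and 6.62% of cKO cells, also the lower share in cKO. The other groups did not all move the same way: cycling Dlx2 cells (at least 3 Dlx2 UMIs and at least 2 of Top2a and Mki67) were 2.91% of WT and 2.5% of cKO cells. GABAergic cells with at least 2 UMIs of Lhx6 or of Lhx8 were 3.34% and 5.18%, and cells with at most 1 UMI of Top2a and Mki67 and at least 3 of Neurod6, a pallial glutamatergic marker, here called Neurod6 neurons, were 26.4% and 35.2%. Shares depend on what was dissected, and dissection and genotype cannot be told apart here.

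The libraries differed as a whole in ways that touch the members. Totals were 116998498 UMIs in WT and 121321247 in cKO. Free RNA, read from droplets of 10 to 100 UMIs, was estimated from haemoglobin as 2.35% of the members' UMIs in WT and 1.15% in cKO, over members with at most 0.1% haemoglobin. Over all members, with 5 WT and 10 cKO cells above that limit included, the same estimate was 11.0% and 21.4%, so its size and its order between libraries rest on those cells. Scrublet called 44 WT members (3.70%) and 58 cKO members (5.59%) as doublets, and they were kept. Among cells, 23 barcodes occurred in both libraries; 3 WT and 4 cKO members carried one, and 0 of these barcodes were members in both. The median log2 ratio of cKO over WT over all 12796 genes tested in members was -0.0055.

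The members expressed Dlx1 and Sp9 widely, but the full marker set was rare among them. Dlx2 (ENSMUSG00000023391, GRCm38 chr2:71543408-71546754) had a median of 5 UMIs per member in WT, from 3 to 24, and of 4 in cKO, from 3 to 18. Dlx1 (ENSMUSG00000041911, chr2:71528113-71533981), which the rule did not use, had a UMI in 96.5% of WT members (95.3 to 97.4) and 94.9% of cKO members (93.4 to 96.2). Sp9 (ENSMUSG00000068859, chr2:73271925-73284706) had one in 77.5% and 77.9%. Neurod6 neurons, which should lack these genes, had a Dlx1 UMI in 8.17% and 8.89% of cells and an Sp9 UMI in 5.46% and 6.60%, at median depths of 10456 and 8426 UMIs. The Dlx1 and Sp9 shares in members were far above that background in both libraries. GABAergic non-members were closer: 80.5% and 80.1% held a Dlx1 UMI, and 66.1% and 65.2% an Sp9 UMI. With cells thinned to equal depth, Dlx1 was found in 83.7% and 81.3% of members against 57.8% and 62.3% of other GABAergic cells, and Sp9 in 62.5% and 63.3% against 46.6% and 48.0%.

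Aldh1a3 and Slc18a2 did not mark the members as a whole. Aldh1a3 (ENSMUSG00000015134, chr7:66390890-66427517) had a UMI in 7.57% of WT members (6.13 to 9.22) and 7.32% of cKO members (5.81 to 9.08). Its share in other GABAergic cells was 8.61% and 5.16%, and with cells thinned to equal depth the shares were 5.21% and 5.49% in members against 5.68% and 4.21% in those cells. Slc18a2 (ENSMUSG00000025094, chr19:59260896-59296012) had a UMI in 33.1% and 32.2% of members, against 26.3% and 17.2% of other GABAergic cells. Slc18a2 was more frequent in members with Aldh1a3 than in those without. Among members with an Aldh1a3 UMI, 76.7% in WT (66.6 to 84.9) and 68.4% in cKO (56.7 to 78.6) also had Slc18a2, against 29.6% and 29.3% of the members without Aldh1a3. In numbers, 69 WT and 52 cKO members held both genes, and 325 and 282 held Slc18a2 without Aldh1a3. A UMI of all 5 markers was present in 4.12% of WT and 3.56% of cKO members. Of the given markers, Dlx1 and Sp9 were thus found in most members and in most GABAergic non-members, while Aldh1a3 marked a small fraction.

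GABAergic identity was present in most members. A Gad1 or Gad2 UMI was found in 85.1% of WT members (83.0 to 87.1) and 83.2% of cKO members (80.8 to 85.5), against 9.57% and 11.3% of Neurod6 neurons. At the edge of the rule, the 329 WT members with exactly 3 Dlx2 UMIs and the 448 WT cells just outside it with 2 were close in Dlx1, at 572 and 524 CPM, and in Gad2, at 328 and 319 CPM. In cKO, 342 members had 3 Dlx2 UMIs and 405 cells had 2, with Dlx1 at 547 and 446 CPM. At the upper end, the 66 WT and 58 cKO members with 10 or more Dlx2 UMIs differed from the rest. Their Dlx1 stood at 1118 CPM in WT and 1237 in cKO, above the members with 3 Dlx2 UMIs. Tubb3, the neuronal beta-tubulin, was lower there, at 1254 and 1194 CPM against 2275 and 2388, and a Gad1 or Gad2 UMI was found in 56.1% and 65.5% of those cells against 91.2% and 89.8%. Members with the most Dlx2 thus held more Dlx1 and less Tubb3 and Gad than those with the least.

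**Figure D1:**
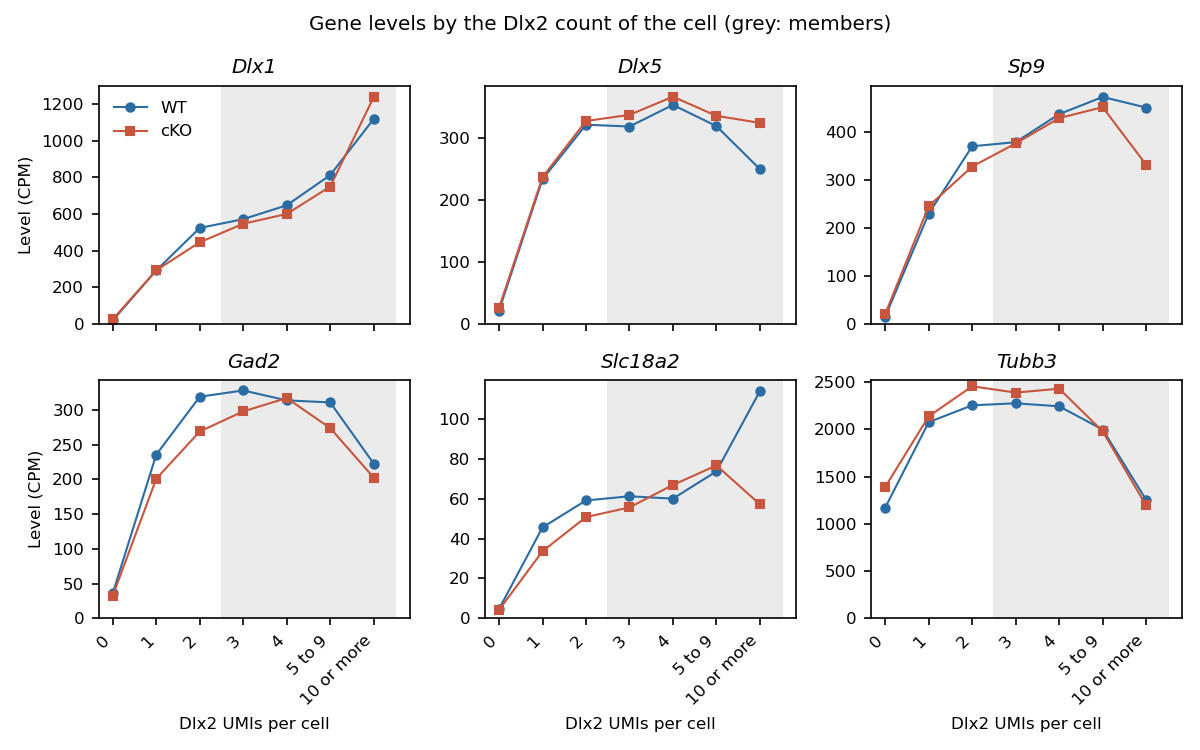
Level of 6 genes (CPM, linear axes from 0) by the number of Dlx2 UMIs in cells that met the other limits of the rule, for WT (circles) and cKO (squares), with members in grey. Dlx1 was highest in cells with 10 or more Dlx2 UMIs, and Gad2 and Tubb3 were lower there than in cells with 3.

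Members were next set beside other GABAergic cells, defined as non-members with at least 3 UMIs of Gad1 and Gad2, at most 1 of Top2a and Mki67 and 0 of Eomes (1092 in WT and 1259 in cKO). Of these, 299 WT and 553 cKO cells had at least 2 UMIs of Lhx6 or Lhx8, and the remaining 793 and 706 were Dlx2-low. The rule chose members on UMIs of these same cells, so the values are a description with no test. Genes counted as higher or lower when past 1.5-fold in both libraries, on log2 of CPM plus 5 and among genes with at least 20 UMIs. Of 12682 genes tested, 124 (0.978%) were higher in members and 256 (2.02%) lower. The other cells were required to hold Gad UMIs and the members were not: with members lacking a Gad1 or Gad2 UMI left out, 49 genes were higher, and 9 of the 12 genes ranked highest stayed past 1.5-fold in both libraries.

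The 12 genes ranked highest in members included regulators of the cell cycle and of neuronal commitment. Ccnd2, the D-type cyclin of neural progenitors, stood at 858 CPM in WT members and 715 in cKO members, against 238 and 174 CPM in other GABAergic cells. Cdkn1c, which encodes the cyclin-dependent kinase inhibitor p57, stood at 589 and 562 CPM against 239 and 242, a fold of 2.47 (2.36 to 2.59) in WT and 2.33 (2.22 to 2.44) in cKO. Both the cyclin and the inhibitor were higher in members in each library. They were among the leading genes of different sub-clusters of members, described below. With both libraries summed, Cdkn1c was at 2989 CPM in sub-cluster 4 against 320 in the other members. Ccnd2 was at 2216 CPM in sub-cluster 2 against 628. Gadd45g, a stress and growth-arrest gene of newborn neurons, was at 212 and 229 CPM against 56.5 and 51.3. Cdk6, the kinase partner of D-type cyclins, was 3.79-fold and 4.07-fold higher. Btg2, an antiproliferative factor of neurogenic divisions, was 2.17-fold and 3.08-fold higher. A further 6 genes of the ranking were Hat1, a histone acetyltransferase, Hmgn2, a nucleosome-binding protein, Zeb1, a zinc-finger repressor, Myo10, an unconventional myosin, and Efhd2 and Palmd, and each was between 2.15-fold and 3.20-fold higher in both libraries.

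The 12 genes ranked lowest in members included the medial eminence factor Nkx2-1 and genes of vesicle release and the axon. Nkx2-1, the selector of the medial eminence, stood at 24.6 CPM in WT members and 38.4 in cKO members, against 105 and 162 CPM in other GABAergic cells. The rule leaves Lhx6 and Lhx8 cells out of the members, and in those cells Nkx2-1 was at 284 and 346 CPM; in Dlx2-low GABAergic cells it was at 43.0 and 30.0 CPM. Syt1 and Syt4, synaptotagmins of vesicle release, were at 189 and 230 CPM against 356 and 453, and at 43.9 and 51.7 CPM against 94.6 and 164. Nefl, the light neurofilament, was at 33.4 and 40.9 CPM against 75 and 90.03, and Robo1, a Slit receptor, at 37.4 and 39.6 against 100.1 and 82.3. The transcription and chromatin regulators Pou3f1, Runx1t1, Chd5 and Tshz2, and Bend5, Tmem158 and Ralyl, were also among the 12 lowest. Without the Lhx6 and Lhx8 cells in the comparison group, 109 genes were higher in members and 180 lower, and 9 of the 12 genes ranked lowest stayed past 1.5-fold in both. With membership decided on thinned UMIs, 10 of those 12 did.

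Of the 13 early subpallial transcription factors, 7 were past 1.5-fold higher in members in both libraries, among them Gsx1 at 36.7 and 34.4 CPM against 2.87 and 4.69, and the noncoding Dlx6os1 at 704 and 701 CPM against 430 and 427. The count includes Dlx2, which the rule used. Dlx5 and Dlx6 were not past it: Dlx5 stood at 322 and 342 CPM against 281 and 277, and Dlx6 at 98.0 and 94.7 against 110 and 96.6. Of 20 S phase genes, 8 were past 1.5-fold higher and 18 were higher in both libraries, including the replication licensing genes Mcm2 (18.2 and 22.8 CPM against 5.07 and 6.26) and Mcm3. Of 21 G2 and M phase genes tested, 3 were past it, and 2 of the list, Top2a and Mki67, were limited by the rule. Of 17 Notch pathway genes, 4 were past 1.5-fold higher and none past 1.5-fold lower, though 2 were lower in both libraries; the ligands Dll1 and Dll3 stood at 60.01 and 56.2 CPM against 32.99 and 26.8, and at 45.7 and 38.5 against 16.6 and 18.04. The glycosyltransferase Mfng, which modifies Notch, was 4.85-fold and 5.54-fold higher.

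Of 27 neuronal maturation genes, 11 were past 1.5-fold lower and 25 were lower in both libraries, with a median log2 ratio of -0.52 in WT and -0.51 in cKO, against -0.026 over all genes in each. Among them, Mapt, the axonal tau protein, stood at 584 and 661 CPM against 901 and 1078. Of 21 GABA and glutamate receptor and chloride transport genes, 5 were past it and 18 were lower in both libraries, among them Slc12a5, the chloride exporter of mature neurons, at 10.7 and 13.6 CPM against 22.7 and 28.2. Migration and early neurite genes were lower in both libraries for 24 of 35, with 2 past 1.5-fold. Dcx, a microtubule protein of migrating neurons, stood at 630 CPM in both libraries of members against 645 and 671. Of the 8 genes of GABA synthesis and transport, none was past 1.5-fold in either direction, although Gad1 and Gad2 defined the comparison group.

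**Figure D2:**
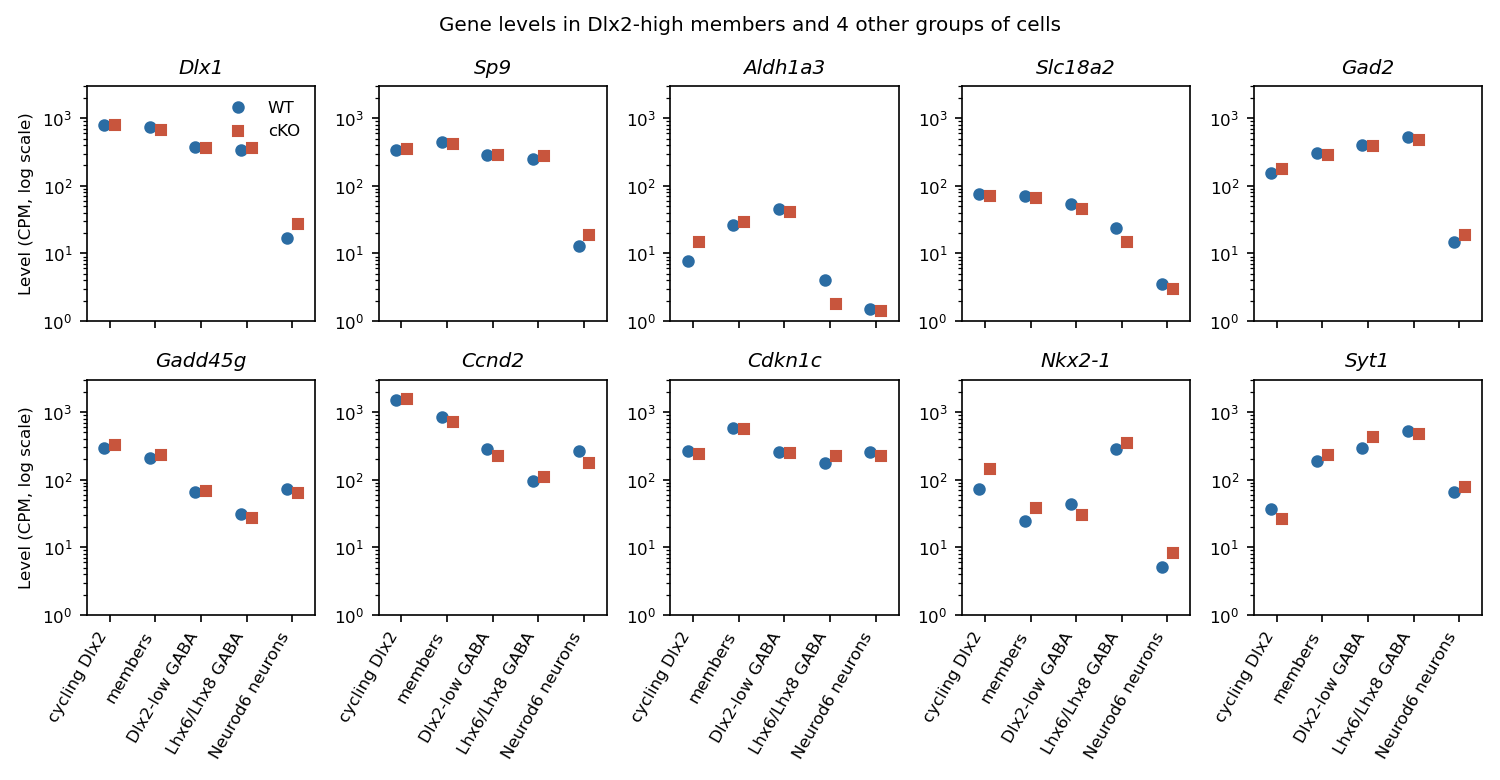
Level of 10 genes (CPM, log axis) in cycling Dlx2 cells, members, Dlx2-low GABAergic cells, Lhx6 or Lhx8 GABAergic cells and Neurod6 neurons, 1 point per library. Gadd45g and Ccnd2 fell from cycling cells through members to the other GABAergic cells in both libraries, Syt1 was lowest in cycling cells, and Cdkn1c was highest in members.

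Members lay between the cycling Dlx2 cells and the other GABAergic cells for several genes. Gadd45g was at 290.3 CPM in cycling WT cells and 322 in cycling cKO cells, 212 and 229 in members, and 65.3 and 68.9 in Dlx2-low GABAergic cells. Syt1 ran the other way, with 37.4 and 26.4 CPM in cycling cells, 189 and 230 in members and 297 and 432 in Dlx2-low cells. Cdkn1c did not follow either course: it was at 268 and 238 CPM in cycling cells and at 261 and 252 in Dlx2-low cells, below the members on both sides. Members outside sub-cluster 4 held it at 320 CPM with both libraries summed.

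Regional transcription factors of the septum were detected in most members, and also in other cells of this tissue. Zic1 or Six3, transcription factors of the septum and its neighbourhood, had a UMI in 94.3% of WT members (92.8 to 95.5) and 95.7% of cKO members (94.2 to 96.8), and both had one in 62.2% and 62.5%. Zic1 alone had a UMI in 92.8% and 92.9% of members, 85.8% and 82.7% of other GABAergic cells and 57.1% and 55.0% of Neurod6 neurons. The mere presence of a Zic1 UMI thus says little about the region of a cell. Six3 had one in 63.7% and 65.3% of members, 53.2% and 51.4% of other GABAergic cells and 7.07% and 7.26% of Neurod6 neurons. Isl1 and Meis2, factors of lateral eminence and striatal neurons, occurred together in 51.5% (48.6 to 54.3) and 54.8% (51.7 to 57.9). Taken singly, Isl1 had a UMI in 684 WT and 642 cKO members and Meis2 in 999 and 888. Whether they occurred together beyond these shares was not tested. Of 16 lateral eminence and striatal genes compared with other GABAergic cells, 11 were lower in members in both libraries and 3 higher. Their median log2 ratio was -0.36 in WT and -0.26 in cKO. Meis2 stood at 1012 and 989 CPM in members and at 520 and 704 in Neurod6 neurons. Drd1 and Penk, genes of mature striatal neurons, were each under 2 CPM in both libraries.

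Clustering the members on their other genes gave 16 sub-clusters, numbered by size and described by their leading genes, which defined them and carry no test. Genes of the rule and Tcf4 were left out of the clustering. The largest, sub-cluster 1, with 216 WT and 174 cKO cells, was led by Fgf3, Fgf15 and Prdm12. Sub-cluster 2 (144 and 123 cells) was led by the mitotic genes Cenpa and Cenpf and held Ccnd2 at 2216 CPM. Cenpa had a UMI in only 25.8% of its cells and Cenpf in 26.6%, against 96.6% for Ccnd2. Sub-cluster 4 (125 and 105 cells) was led by Gsx1 and Olig1, with Gsx1 at 263 CPM, Cdkn1c at 2989 CPM and Gad2 at only 49.0 CPM. Sub-cluster 12 (24 and 29 cells) was led by Pclaf and Mcm3, genes of DNA replication, so the limit on Top2a and Mki67 left cells with S phase transcripts among the members.

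Aldh1a3 was concentrated in sub-cluster 6, with 83 WT and 89 cKO cells. Aldh1a3 stood at 347 CPM there against 8.41 CPM in the other members, together with the homeodomain factor Pbx3 at 290.3 CPM and Slc18a2 at 281 CPM. Sub-cluster 8 (60 and 43 cells), led by Cpne5, Foxp2 and Zfp503, was the only other one with over 50 CPM of Aldh1a3, at 80.3 CPM, and it shared Meis2 and Pbx3 with sub-cluster 6. Meis2 was at 2382 CPM in sub-cluster 6 and 2301 in sub-cluster 8. In sub-cluster 6, Aldh1a3 had a UMI in 57.6% of cells and Slc18a2 in 73.3%. Neither gene was left out of the clustering, so their high levels there describe how the sub-cluster was formed and are no separate support.

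The remaining sub-clusters differed in region and in maturity. Sub-cluster 3 (145 and 104 cells) was led by Hrk and Robo3 and held St18, a zinc-finger factor of GABAergic neurons, at 390 CPM. Sub-cluster 5 (87 and 126 cells) was led by Grm5, the metabotropic glutamate receptor, and held Trpc4, a cation channel gene, at 285 CPM. Sub-cluster 7 (84 and 56 cells) was led by Calb2, which encodes calretinin, at 1005 CPM against 24.7 in the other members, and by Pax6 at 423 against 37.8. Sub-cluster 14 (36 and 9 cells) was led by Npas1, Nr2f2, Nr2f1 and Adarb2, genes of caudal eminence interneurons. Sub-clusters 11 and 13 stood apart: 80.0% and 71.7% of their cells were doublet calls, and they were led by Neurod6 (780 CPM) and by Ttr and the glial gene Fabp7 (4279 CPM). Their median depth was 20644 and 18336 UMIs in WT.

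**Figure D3:**
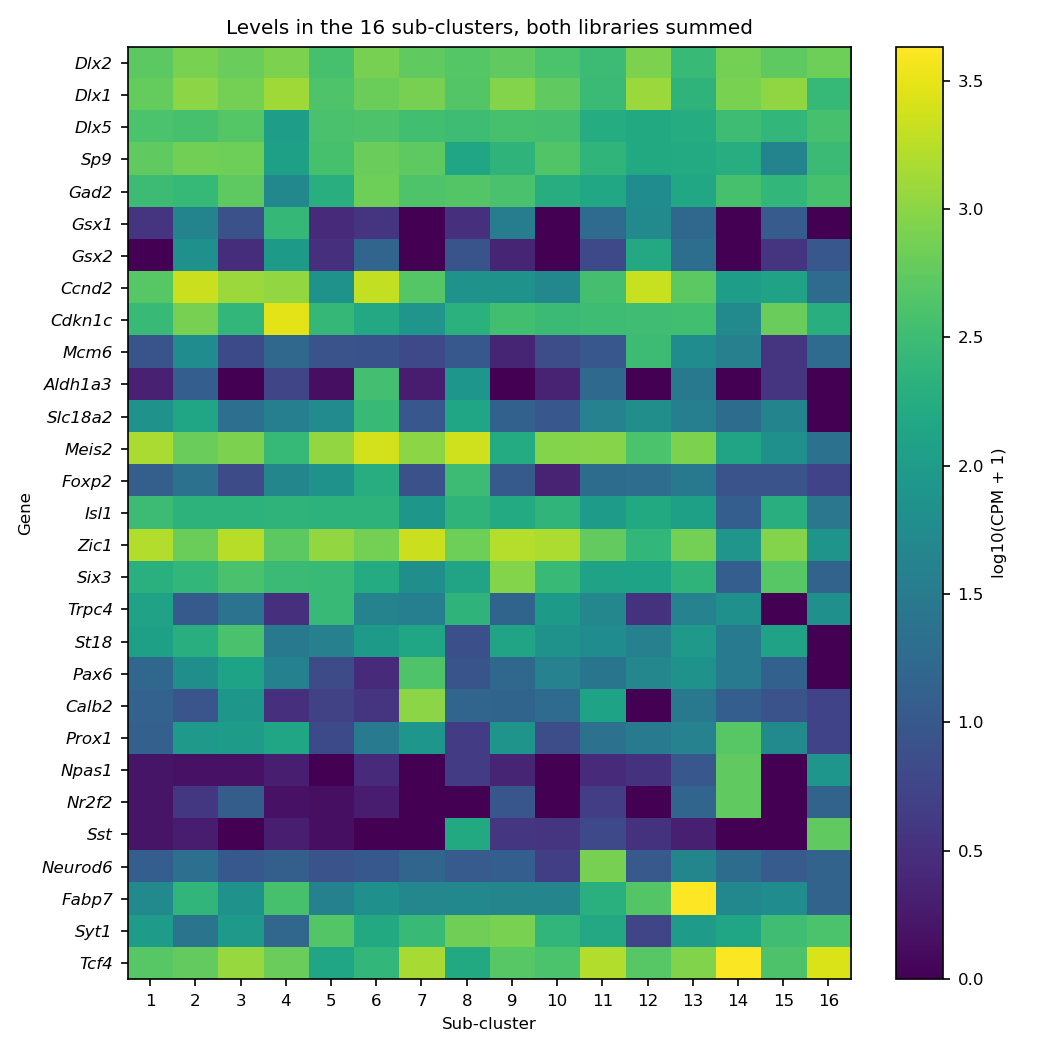
Level of 29 genes (colour, log10 of CPM plus 1) in the 16 sub-clusters of members with both libraries summed. Dlx2 is present throughout by the rule, Gsx1 is highest in sub-cluster 4, Aldh1a3 in sub-cluster 6, Calb2 in sub-cluster 7 and Npas1 in sub-cluster 14.

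Most sub-clusters took similar shares of the members in both libraries. The intervals of the shares did not overlap for sub-cluster 5, with 7.32% of WT members (5.90 to 8.95) and 12.1% of cKO members (10.2 to 14.3), for sub-cluster 11, with 1.93% (1.23 to 2.89) and 4.05% (2.93 to 5.43), and for sub-cluster 14, with 3.03% (2.13 to 4.17) and 0.867% (0.397 to 1.64). Some leading genes of sub-clusters 5 and 14 also differed in summed level between the libraries, as given below, so sizes and levels rest on the same UMIs and are not separate findings. Most cells of sub-cluster 11 were doublet calls. Sub-cluster 4, with Gsx1, was 10.5% and 10.1% of members, and sub-cluster 6, with Aldh1a3, 6.98% and 8.57%.

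**Figure D4:**
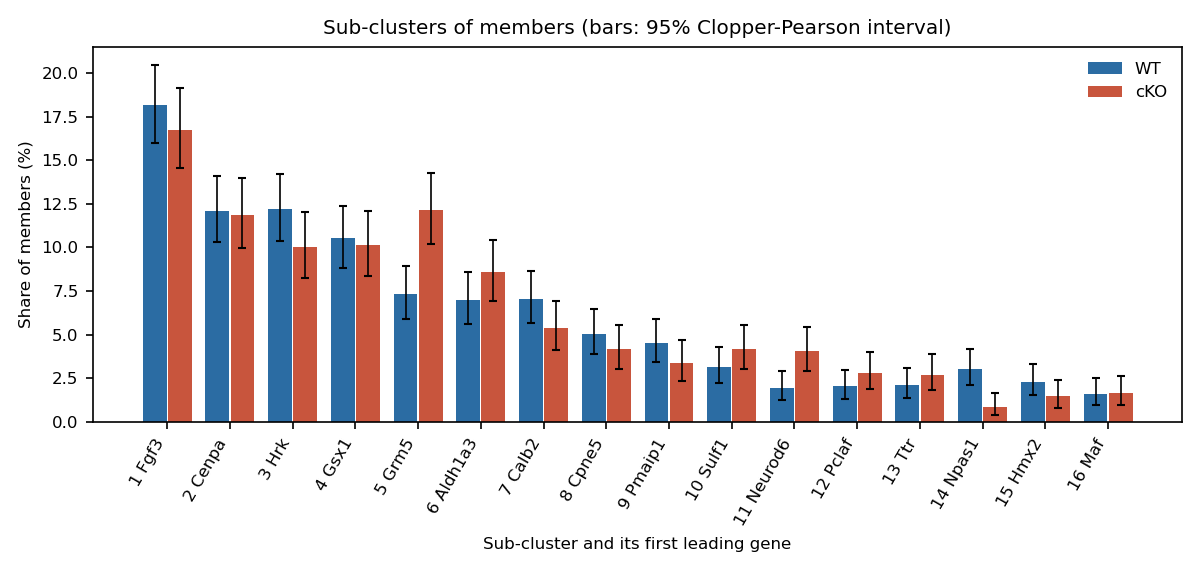
Share of members (%) in each sub-cluster, WT and cKO bars side by side from 0, with 95% Clopper-Pearson intervals and the first leading gene on the axis. Sub-cluster 5 takes a larger share in cKO (12.1% against 7.32%) and sub-cluster 14 a smaller one (0.867% against 3.03%).

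Tcf4, the bHLH E-protein gene targeted in the mutant, was read first in the comparison of genotypes. It stood at 798 CPM in WT members (781 to 815) and 616 in cKO members (599 to 632), a ratio of 0.772 (0.746 to 0.798). Emx1, the gene that directs Cre, was low in members, at 5.85 and 5.99 CPM, against 108 and 68.3 CPM in Neurod6 neurons. Those neurons held Tcf4 at 2657 and 1749 CPM, and free RNA at 977 and 711 CPM, above the level in members in both libraries. With membership decided on thinned UMIs the log2 ratio was -0.15, against -0.37 as defined here. The same ratio was -0.37 with free RNA taken off at shares of 2.35% in WT and 1.15% in cKO, and -0.42 without doublet calls. Free RNA was not taken off at the larger shares estimated over all members, 11.0% and 21.4%. Its part in the ratio was not tested further. The level of Tcf4 varied more between sub-clusters than between libraries: it was 4094 CPM in sub-cluster 14, 1423 in sub-cluster 7 and 135 in sub-cluster 5. It was lower in cKO in 11 of the 13 sub-clusters with at least 20 cells in each library, and without sub-cluster 14 the log2 ratio was -0.29. Tcf4 in Dlx2-low GABAergic cells was 571 and 465 CPM, and in Lhx6 or Lhx8 cells 741 and 823 CPM. The libraries count 3′ tags and the floxed exon is not given, so these UMIs say nothing about the remaining protein.

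Few genes differed between the libraries within members. Of 12796 genes tested, 36 (0.281%) were at least 1.5-fold higher in cKO and 29 (0.227%) at least 1.5-fold lower. The 36 included 5 red cell genes, 2 ependymal and choroid plexus genes and 2 pallial glutamatergic markers, and the 29 included 3 microglial markers. Without doublet calls the counts were 26 and 23, and 47 of the 65 genes stayed past 1.5-fold on the same side. Where such a gene also had at least 20 UMIs in other GABAergic cells, it lay on the same side there in 46 of 57. The same count over all genes tested was not made, so the 46 have no background to be read against. The early subpallial factors were close in the libraries. Of 13 tested, none was past 1.5-fold, 9 were lower and 4 higher in cKO, and the median log2 ratio was -0.08, or 0.06 with membership decided on thinned UMIs. Dlx1 stood at 730 CPM in WT (714 to 746) and 680 in cKO (663 to 698), Dlx5 at 322 and 342, and Sp9 at 438 and 414. Gad1 and Gad2 were at 129 and 121 CPM and at 311 and 287 CPM. Nor did the 17 Notch genes tested or the 15 septal and midline factors hold one past 1.5-fold.

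Colec12, a scavenger receptor gene, showed the largest ratio and did so in each group of cells compared. It stood at 0.822 CPM in WT members and 98.5 in cKO members, a ratio of 120 (62.8 to 263), with a UMI in 0.589% of WT and 49.6% of cKO members. The difference was present in all 13 sub-clusters compared, in other GABAergic cells (1.91 and 106 CPM), in cycling Dlx2 cells (1.94 and 63.7) and in Neurod6 neurons (0.654 and 103). Colec12 lies at GRCm38 chr18:9707595-9882644, the chromosome that also carries Tcf4. The distance between the genes was not measured, and any bearing of their positions on the ratio was not tested. Wdfy1, an endosomal protein gene, was likewise 1.66-fold higher in members (1.504 to 1.83) and 1.68-fold in other GABAergic cells, in 13 of 13 sub-clusters.

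Grm5 was the third of the 15 genes ranked higher in cKO and stood at 44.9 and 73.6 CPM, a ratio of 1.64 (1.45 to 1.84), and at 276 and 335 CPM within sub-cluster 5, which it leads. The calcium channel subunit gene Cacna2d2 stood at 87.6 and 130 CPM and was higher in 12 of 13 sub-clusters. Gap43, a growth cone protein, stood at 455 and 576 CPM, a ratio of 1.26 (1.22 to 1.32), and Syt1 at 189 and 230. Rab6b, a neuronal Golgi GTPase gene, Ap1s2, Rgs2, Vldlr, a reelin receptor gene, Zfhx2, Ndn, which encodes necdin, Pnck and Rwdd4a completed the ranking with Isl1, with ratios of 1.20 to 1.38. Several of these depended on the choice of cells. The log2 ratio of Rgs2, 0.43, was -0.06 in members with at least 5 Dlx2 UMIs and 0.14 with sub-clusters weighted equally. Under equal weights that of Grm5 went from 0.65 to 0.21, that of Ap1s2 from 0.44 to 0.09 and that of Gap43 from 0.34 to 0.14, and Gap43 was at 0.05 with membership decided on thinned UMIs. Across all 27 maturation genes tested, 20 were higher in cKO and none was past 1.5-fold, with a median log2 ratio of 0.083, which was -0.04 with membership decided on thinned UMIs.

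Isl1 (ENSMUSG00000042258, chr13:116298281-116309689), a LIM-homeodomain factor of striatal and septal neurons, was higher in cKO members, at 186 (178 to 194) and 241 CPM (231 to 252), a ratio of 1.30. It was higher in 11 of 13 sub-clusters, among them sub-cluster 1, at 283 and 346 CPM, and sub-cluster 4, at 186 and 300 CPM. In Dlx2-low GABAergic cells Isl1 stood at 197 and 237 CPM, a ratio of 1.20 (1.12 to 1.29), and in Lhx6 or Lhx8 cells at 99.5 and 97.7 CPM. A UMI of Isl1 was found in 57.5% of WT and 61.9% of cKO members, and in 36.2% and 43.6% after thinning. The list of lateral eminence and striatal genes did not move together: of 14 tested, Isl1 included, 6 were higher and 8 lower in cKO, and Ebf1 (22.1 and 9.04 CPM) and Tac1 (9.22 and 1.02 CPM) were past 1.5-fold lower.

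Genes of caudal eminence interneurons were the list with the largest shift to lower values in cKO that did not belong to another cell class. Of 11 tested, 10 were lower in cKO and 6 past 1.5-fold, with a median log2 ratio of -0.66. Calb2 (ENSMUSG00000003657, chr8:110137502-110168210) stood at 102 CPM in WT (96.3 to 108) and 54.2 in cKO (49.4 to 59.2), a ratio of 0.530. Within sub-cluster 7, led by Calb2 and Pax6, Calb2 was at 1264 and 578 CPM. Calb2 was not among the leading genes of sub-cluster 14, which Npas1 and Nr2f2 led. In Dlx2-low GABAergic cells Calb2 was at 112 and 52.1 CPM, so it was lower outside the members too. Adarb2 stood at 51.0 and 28.1 CPM, Npas1 at 13.3 and 5.31, and Nr2f2 at 13.6 and 6.78. Npas1 within sub-cluster 14 was at 545 and 622 CPM, and that sub-cluster held 36 WT and 9 cKO cells. Without it the median of the list was -0.27, and with sub-clusters weighted equally -0.13, where Adarb2 alone went from -0.76 to -0.01. Prox1, a homeodomain factor of this lineage and of other neurons, stood at 63.7 and 47.4 CPM in members and at 33.6 and 33.5 in other GABAergic cells.

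Most immediate early genes were lower, and most S phase genes higher, in cKO members. Of 13 immediate early and dissociation stress genes tested, 11 were lower and 1 of them, Atf3, was past 1.5-fold, with a median log2 ratio of -0.17. Jun stood at 299 and 228 CPM, a ratio of 0.763 (0.721 to 0.807), lower in 11 of 13 sub-clusters, and Egr1 at 171 and 127 CPM. Both were lower in other GABAergic cells as well, at 322 and 278 and at 158 and 139 CPM. These genes respond to cell dissociation, and the handling of each library was not tested. Of 20 S phase genes, 19 were higher in cKO and none past 1.5-fold, with a median log2 ratio of 0.19, which was 0.08 with membership decided on thinned UMIs. Uhrf1, a DNA methylation cofactor, stood at 10.1 and 15.4 CPM and Pcna, the replication clamp, at 52.6 and 64.3. Only 6147 of the 12796 genes tested (48.0%) were higher in cKO. Ccnd2 was at 858 and 715 CPM, a ratio of 0.834 (0.807 to 0.861). Of its UMIs in WT members, 1 cell held 491, or 5.23%. Without the highest cell of each library the levels were 814 and 707 CPM.

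Beside Calb2, Adarb2, Prox1, Jun and Egr1, the 15 genes ranked lower in cKO held 10 others. Thoc1, an mRNA export factor, and Mak16, a ribosome biogenesis factor, stood at 89.5 and 68.7 CPM and at 102 and 78.8 CPM. Mak16 and Zfp157 were lower in 13 of 13 sub-clusters, and the noncoding Gt(ROSA)26Sor and A430106G13Rik in 12 of 13. Otx2, a forebrain homeodomain factor, stood at 69.7 and 53.1 CPM in members and 72.7 and 51.4 in other GABAergic cells. Mettl23, Ip6k2 and Nap1l5 had ratios of 0.750 to 0.781. Gnrh1, the gonadotropin-releasing hormone gene, ranked first with 119 and 1.58 CPM, but 1 WT cell held 1277 of its UMIs, 97.7% of them, and without the highest cell of each library the log2 ratio was -0.29.

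**Figure D5:**
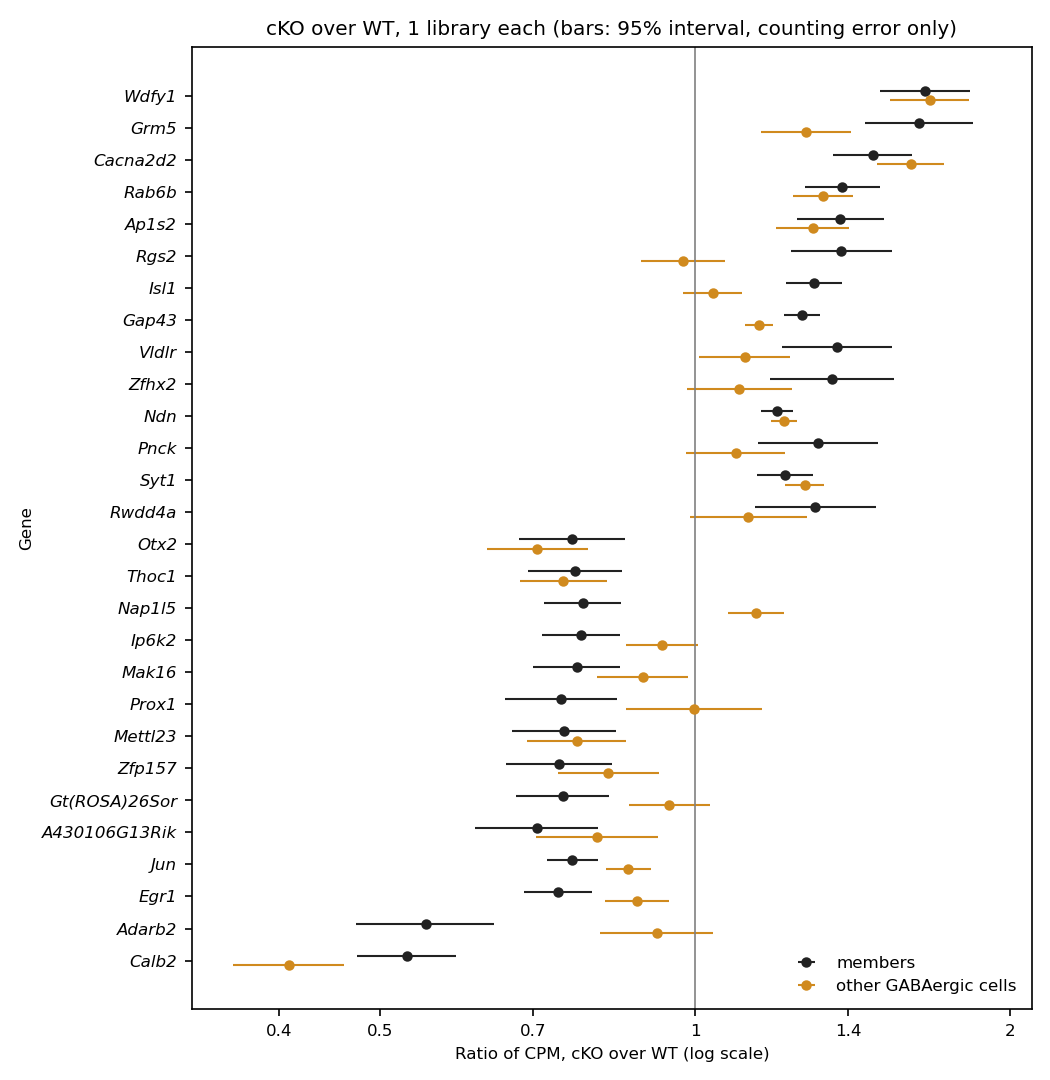
Ratio of cKO over WT level (log axis) in members (black) and in other GABAergic cells (orange) for 28 of the 30 genes ranked highest or lowest in members, with 95% intervals for counting error. Colec12 and Gnrh1 lie outside the axis and are given in the text. Wdfy1 and Cacna2d2 lie close together in both groups, while Nap1l5 falls below 1 in members and above 1 in the other cells.

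Markers of other cell types differed between the libraries of members. Of 11 pallial glutamatergic markers tested, 10 were higher in cKO and 2, Neurod6 (43.9 and 73.4 CPM) and Neurod1 (10.7 and 20.5), past 1.5-fold; their summed level was 135 CPM in WT and 194 in cKO members, 133 and 220 in other GABAergic cells and 3238 and 3698 in Neurod6 neurons. Eomes was at 0 by the rule. Their median log2 ratio was 0.20, and 0.16 without doublet calls, 0.27 with free RNA taken off and 0.04 with sub-clusters weighted equally. Without the 37 WT and 54 cKO members that held at least 2 UMIs of Neurod2 and Neurod6 it was 0.11. Of the 6 red cell genes tested, 6 were higher in cKO, with a summed level of 826 and 2532 CPM, and 5 WT and 10 cKO members held over 0.1% haemoglobin. Of 8 microglial markers, 4 were tested and all 4 were lower in cKO, with a summed level of 18.7 and 2.83 CPM, and 1 WT cell held 75% of the C1qb and 81.8% of the C1qa UMIs. Ttr, the choroid plexus transthyretin gene, stood at 443 and 1811 CPM, and 1 cell in each library held 86.7% and 53.4% of its UMIs. Of 4 Cajal-Retzius markers tested, 4 were lower in cKO, Calb2 among them. Trp73, a defining gene of those cells, had 1 UMI in WT and 0 in cKO members.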

How the data were processed

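Single-cell RNA was counted in 1 WT and 1 Tcf4_cKO library. Values in the matrices deposited by the authors are raw UMI counts, not normalized, for all barcodes including empty droplets. Cell Ranger 7.1.0 is recorded per the file headers, whereas version 2.1.1, with mm10 as the build, stands in the submitters' processing notes. Which annotation was used, and whether introns were counted, is not given in the sources used here. Rows of the same symbol were summed. Members and gene lists were chosen with earlier results of these data known.

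Counts were summed per group and library. Log2 ratios used a pseudocount of 5 CPM, genes with at least 20 UMIs and 1.5-fold as the limit. Named genes were the members of 30 fixed lists, the 12 highest and 12 lowest genes against other GABAergic cells, the 15 highest and 15 lowest of cKO over WT, both ranked by the ratio bound nearest to 1, and the 8 highest and 8 lowest differences of log2 ratios between members and other GABAergic cells. They needed 50 UMIs, 50 CPM where higher and a level not under free RNA; genes of mitochondria, ribosomes, haemoglobin and sex were not ranked. Doublets were called with scrublet in scanpy 1.11.5 (expected rate 6%) and kept. Members were clustered on 1500 variable genes, 20 principal components and 15 neighbours by Leiden at resolution 0.5. Thinning drew each cell down to the UMI minimum of the cell filter. Positions came from GENCODE vM21 and upstream sequences from RefSeq (GRCm38.p6). The calculation of ratios was checked on counts simulated from WT members: of 12594 unchanged genes 0 passed 1.5-fold, and all 50 genes changed 2-fold upward did. The simulation drew Poisson counts with no spread between cells, animals or libraries, and changed only genes with at least 50 CPM. It cannot give the rate of false calls in the real data. Some genes that the rules would name are not reported here.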

Additional observations from a re-analysis of the deposited data

Results flagged for a closer look

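For 6 genes the cKO over WT log2 ratio in Dlx2-high members and that in other GABAergic cells had opposite signs with intervals that did not overlap; with 1 library per genotype the difference itself was not tested. Each difference below is the log2 ratio in members minus that in other GABAergic cells, with 0.5 UMIs added to each count.

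Ccnd1, a D-type cyclin, had a difference of 1.13 (0.91 to 1.35). It stood at 75.4 and 88.4 CPM in members and at 71.0 and 38.02 in other GABAergic cells. Itga6, an integrin subunit gene, had a difference of 0.76, with 38.5 and 50.1 CPM in members against 45.6 and 35.1. Radial glia genes moved with these in the other cells, where the summed level of the list was 2555 CPM in WT and 1262 in cKO, against 2065 and 2017 in members; their part in the differences was not tested.

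Nefm, the medium neurofilament, had a difference of -0.85, with 73.5 and 64.0 CPM in members and 96.7 and 152 in other GABAergic cells. Among Dlx2-low GABAergic cells alone Nefm stood at 105 and 96.9 CPM, on the same side as in members, and in Lhx6 or Lhx8 cells at 73.8 and 228. Nap1l5 had a difference of -0.55, with 130 and 101 CPM against 178 and 203. Gnrh1 had a difference of -6.87 and Sst, the somatostatin gene, of -2.08. Of the UMIs in WT members, 1 cell held 97.7% for Gnrh1 and 57.8% for Sst. Lhx6 or Lhx8 cells were 299 of the 1092 other GABAergic cells in WT and 553 of 1259 in cKO.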

How the results depend on the processing

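The share of members followed the rule, in WT and cKO in turn: 18.3% and 13.5% with at least 2 Dlx2 UMIs, 6.8% and 4.42% with at least 5, 12.4% and 9.16% of cells with at least 6700 UMIs, 4.82% and 3.81% after thinning, 11.3% and 8.1% with a Gad1 or Gad2 UMI required, and 9.08% in cKO without the Neurod6 and Ttr sub-clusters. The cKO share was the lower one in each setting, at 0.649 to 0.790 times that of WT. Genes higher in cKO members, 36 as reported, numbered 75 with at least 5 Dlx2 UMIs, 61 at 6700 UMIs, 96 after thinning, 212 with a pseudocount of 1 CPM and 12 with 20 CPM. Genes lower, 29 as reported, numbered 51, 123 after thinning, 197 and 3 under the same choices of 5 Dlx2 UMIs, thinning and pseudocounts, and 19 with at least 100 UMIs per gene. Genes higher in members than in other GABAergic cells, 124 as reported, numbered 231 with at least 5 Dlx2 UMIs, 247 after thinning, 49 with Gad required, and 255 and 53 with the pseudocounts of 1 and 20 CPM; genes lower, 256 as reported, numbered 507, 634, 510 and 53 with 5 Dlx2 UMIs, thinning and the 2 pseudocounts. The median of medial eminence genes, -0.12 as reported, was 0.06 both with at least 5 Dlx2 UMIs and after thinning; after thinning those of early subpallial and maturation genes also changed sign, from -0.08 to 0.06 and from 0.08 to -0.04. The striatal (-0.03) and septal (0.02) medians, near 0, ranged from -0.10 to 0.05 and from -0.05 to 0.05. The causes were not tested. Of the log2 ratios of the genes ranked by genotype, of Tcf4 and of the markers, 539 over all alternatives stayed within a counting range and 37 moved. This range ran from the low cKO level bound over the high WT bound to the high cKO bound over the low WT bound. It is not the interval of the ratio itself. No ratio past 1.5-fold changed sign. Smaller ones did: Rgs2 (0.43 to -0.06) and Aldh1a3 (0.14 to -0.47) at 5 Dlx2 UMIs, Aldh1a3 (-0.52) and Dlx2 (0.03 to -0.05) at 6700 UMIs, and Slc18a2 after thinning (-0.07 to 0.04). Leaving out the Neurod6 and Ttr sub-clusters, the Npas1 sub-cluster, members over 0.1% haemoglobin, or the highest cell per gene were alternatives chosen after seeing the data. No paired analysis was possible because each genotype has 1 library and the labels carry no replicate numbers.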

Other observations

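Small sub-clusters of members held further identities. Sub-cluster 15, with 27 WT and 15 cKO cells, was led by the homeodomain genes Hmx2 (523 CPM against 0.670 in the other members) and Hmx3 (289 against 0.361) and by Scg2, a secretogranin gene, at 841 CPM. It also held the WT cell rich in Gnrh1. Sub-cluster 16, with 19 and 17 cells, was led by Maf (1060 CPM), Sst (557) and Npy (287), genes of medial eminence interneurons, although the rule limited Lhx6 to 1 UMI per cell; Lhx6 itself stood at 102 CPM there. Sub-cluster 9, with 54 and 35 cells, was led by Pmaip1, with Reln at 196 CPM and Six3 at 897 CPM.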
